A study of Mus musculus with 3 samples.

Results

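The alveolar type 1-like distal cells are 1316 of 5976 distal epithelial barcodes, out of 12967 deposited barcodes, from 3 single-cell libraries of embryonic mouse lung. They were chosen within each library by their UMIs, the unique molecular identifiers that count captured RNA molecules. A distal barcode had at least 5000 UMIs, at most 10% mitochondrial UMIs, at least 3 Epcam UMIs, fewer than 10 C1qa, C1qb and C1qc UMIs and no Sox2 UMI. A barcode was type 1-like when the summed share of Hopx, Clic5, Ager and Akap5 lay above the library's 75th percentile and that of Sftpa1, Sftpb and Cxcl15 did not. This gave 441, 407 and 468 barcodes in Epcam+ Icam+ replicate 1, Epcam+ Icam+ replicate 2 and the Epcam+ library, the order in which values are given throughout. The percentile sets the share of barcodes chosen, so these numbers describe the selection and not how common the cells were. Of the other distal barcodes, 1316 were high only in the surfactant share, 178 were high in both and 3166 in neither.

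Each library came from C57/B6 lungs at E14.5, pooled over the embryos of 2 females and stained with antibodies to Epcam and Icam1. The cell type label is Epcam+ Icam+ for 2 libraries, given as replicates, and Epcam+ for 1. Type 1-like barcodes held a median of 19509, 19920 and 25924 UMIs, against 21185, 21937.5 and 28714 in the other distal barcodes. Their summed depth was 9033441, 8375632 and 13120036 UMIs. Between 1 and 4 barcodes per library carried a sequence also found in another library, and 0 of them were type 1-like. The labels do not say whether the replicates came from separate dissections, so every p-value refers to the variation among these 3 libraries, part of which may be technical.

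Alveolar type 1 cells are the thin, broad cells through which the lung exchanges gas, and type 2 cells make and secrete surfactant. Both descend from distal tip progenitors that carry Sox9 and Id2, and the split between them begins before birth. Icam1, the adhesion molecule used in the sort, is held on the apical surface of type 1 cells in the adult lung. Hopx is an unusual homeodomain protein without DNA binding of its own, Clic5 belongs to the chloride intracellular channel family and binds the actin cortex, Ager encodes the receptor for advanced glycation end products, and Akap5 anchors protein kinase A.

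The name type 1-like rested on all 4 chosen genes in the Epcam+ Icam+ libraries and mostly on Ager in the Epcam+ library. In CPM, the UMIs of a gene per 1000000 UMIs of the same barcodes, Hopx stood at 350, 338 and 16 in type 1-like barcodes and at 120, 106 and 8.17 in the others. Clic5 stood at 64.5, 65.4 and 1.45 against 15.9, 11.9 and 0.233, and Akap5 at 219, 231 and 50.6 against 82.2, 79.4 and 20.4. Ager stood at 465, 467 and 230 against 211, 196 and 72.7. All 4 genes had a UMI in 249 and 208 of the Epcam+ Icam+ type 1-like barcodes but in 2 of those in the Epcam+ library. Hopx was detected in 98.9%, 97.5% and 32.5% of the type 1-like barcodes and Clic5 in 63.0%, 60.0% and 3.21%. Ager supplied 42.3%, 42.4% and 77.1% of the UMIs that chose them. These levels chose the barcodes, so no test is given for them.

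The limits of the type 1 share differed between libraries, at 782, 744 and 201 CPM. Single limits taken from the Epcam+ Icam+ libraries left 471, 380 and 2 type 1-like barcodes. In the Epcam+ library the name therefore marks the upper end of that library's own range, at a median of 8 selecting UMIs per barcode against 21 and 22. The share was a continuum: 72, 59 and 72 type 1-like barcodes lay within 10% of the limit, and 94, 106 and 109 barcodes lay within 10% below it. When barcodes were chosen on a random part of their UMIs and measured on the remainder, Hopx was still 2.31 and 2.60 times as high as in the other barcodes in the Epcam+ Icam+ libraries and 1.15 times as high in the Epcam+ library. The same ratios for Ager were 1.85, 2.11 and 2.04.

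**Figure D1:**
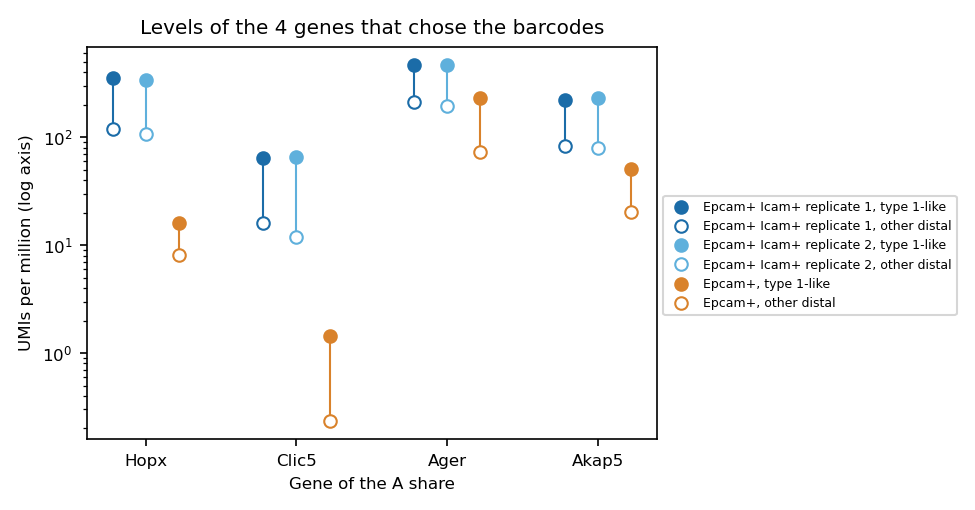
Levels of Hopx, Clic5, Ager and Akap5 in CPM on a log axis, with filled points for type 1-like barcodes and open points for the other distal barcodes of each library. The Epcam+ library lies below both Epcam+ Icam+ libraries for each gene, and its Clic5 level in type 1-like barcodes is 1.45.

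Genes known from alveolar type 1 cells that the selection did not read were mostly higher as well. Summed counts of the type 1-like and the other distal barcodes were compared within each library by edgeR's quasi-likelihood test, with the library as a block and Benjamini-Hochberg adjustment over 13654 genes. Of all genes tested, 4.97% were called higher and 7.65% lower at an adjusted p under 0.05. Of 36 listed type 1 genes 35 were tested, of which 27 rose, 1 fell and 7 were not called, and their median log2 fold change was 0.47 against -0.01 for all genes. Within single libraries, 33, 30 and 26 of the 35 were higher in type 1-like barcodes. The listed genes and those of the selection are co-expressed by cell type, so the counts describe the chosen barcodes and do not test whether a type 1 cell was present.

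Emp2, a tetraspan membrane protein of type 1 cells encoded at chr16:10281749-10313968 on the minus strand of GRCm38, stood at 331, 303 and 49.2 CPM in type 1-like barcodes and at 189, 170 and 26.9 in the others. Each library showed the difference at nearly the same ratio, although the levels differed several-fold between sorts. Its log2 fold change was 0.83 ± 0.0409 (SE, 3 libraries; edgeR's quasi-likelihood test, adjusted p = 5.3e-08). Sema3a, a secreted guidance cue, stood at 58.6, 59.5 and 4.27 CPM against 29.7, 25.2 and 2.72, and its log2 fold change was 1.05. Vegfa, the endothelial growth factor that type 1 cells supply to capillaries, stood at 74.9, 71.9 and 14.2 against 54.3, 53.6 and 10.4, with a log2 fold change of 0.45 (adjusted p = 0.00021). Cldn18, a tight junction claudin of the alveolus, stood at 983, 1004 and 294 against 780, 765 and 251 and rose by 0.31 on the log2 scale (adjusted p = 0.00033). All 4 were higher in every library, as were 21.6% of all genes tested, and 24.4% were lower in every library.

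Type 1 genes of the mature lung were less uniform. Pdpn, the podoplanin glycoprotein of flat type 1 membrane, stood at 47.3, 41.0 and 31.9 CPM in type 1-like barcodes and at 30.4, 29.9 and 32.9 in the others. It was higher in both Epcam+ Icam+ libraries and at the level of the other barcodes in the Epcam+ library, and across the 3 it was not called (log2 fold change 0.33, edgeR's quasi-likelihood test, adjusted p = 0.059). Without the Epcam+ library, where 10.5% of genes were called higher, it was called at 0.57. The water channel Aqp5 was near the floor of detection, with 11, 14 and 0 UMIs in type 1-like barcodes, where 3 UMIs would amount to 0.229 CPM in the Epcam+ library (counting error only). Egfl6, a secreted protein that also stands on the type 2 list, was the listed gene that fell (log2 fold change -0.73). Against barcodes high in neither share Egfl6 differed by -0.10 (adjusted p = 0.51), and 24 of 35 listed type 1 genes were higher, where 2.81% of all genes were higher.

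**Figure D2:**
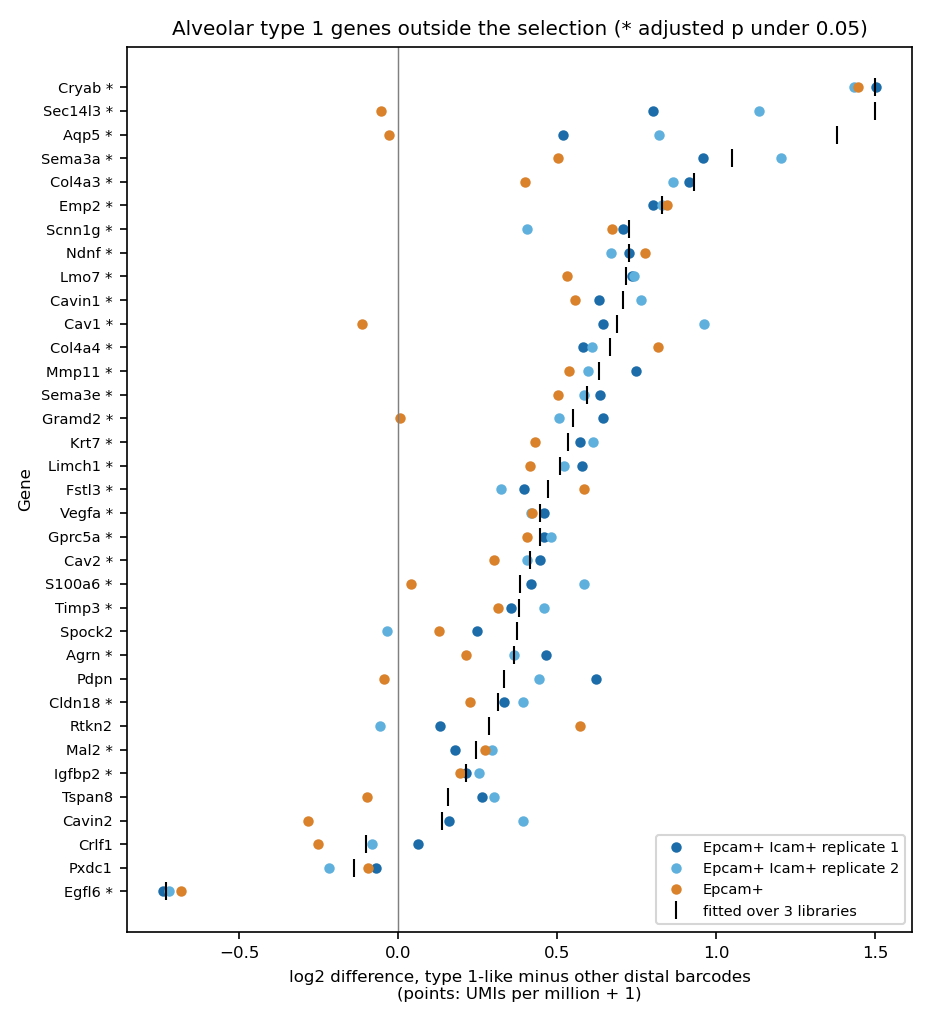
Differences of 35 type 1 genes between type 1-like and other distal barcodes, as log2 of CPM plus 1 for each library (points) and as fitted log2 fold changes over the 3 libraries (bars), with an asterisk at an adjusted p under 0.05. Cryab lies highest at 1.5 and Egfl6 lowest at -0.73. In the Epcam+ library Cav1 and Pdpn lie just below 0.

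Icam1, at chr9:21015985-21028817 on the plus strand of GRCm38, was higher in type 1-like barcodes of each library, including the one labelled Epcam+ only. Its level was 251, 248 and 210 CPM in type 1-like barcodes against 189, 182 and 149 in the others. The log2 fold change was 0.44 ± 0.0385 (SE, 3 libraries; edgeR's quasi-likelihood test, adjusted p = 8e-06). The difference did not depend on the sort beyond the spread: the interaction was -0.01 ± 0.0577 (adjusted p = 0.99). Type 1-like barcodes of the Epcam+ Icam+ libraries exceeded those of the Epcam+ library in Icam1 by only 0.17 on the log2 scale (adjusted p = 0.0063), a comparison in which the gene table and the software differed too. With each barcode thinned to 5000 UMIs, Icam1 was seen in 69.2%, 65.1% and 56.6% of type 1-like barcodes and in 58.1%, 54.4% and 47.9% of the others. Without thinning the shares were 95.9%, 96.3% and 93.8% against 90.9%, 90.4% and 90.5%. Macrophage barcodes, those with at least 10 C1q UMIs, had an Icam1 UMI in 26.3%, 28.5% and 55.6% of cases after thinning (the last of 36 barcodes), and macrophages can carry Icam1 themselves.

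Divided into 4 equal bins by the type 1 share, distal barcodes differed between the lowest and highest bins for the 4 genes shown. This did not hold for every type 1 gene. Pdpn and Cav1 were higher in the highest bin of both Epcam+ Icam+ libraries. In the Epcam+ library Pdpn went from 31.35 to 33.73 CPM and Cav1 from 6.16 to 2.24. Icam1 went from 160 CPM in the lowest bin to 246 in the highest in Epcam+ Icam+ replicate 1, from 158 to 244 in replicate 2 and from 139 to 205 in the Epcam+ library. Emp2 went from 132 to 319, from 120 to 296 and from 23.5 to 47.1 CPM. Krt7, a simple epithelial keratin chosen for display after its values were seen, went from 212 to 396, from 209 to 386 and from 193 to 280. Sftpc, the surfactant protein C gene, went from 7689 to 4011 and from 9182 to 4353 in the Epcam+ Icam+ libraries but from 2222 to 2909 in the Epcam+ library. The direction for Sftpc thus differed between the single Epcam+ library and the Epcam+ Icam+ libraries, and that for Icam1, Emp2 and Krt7 did not. The Epcam+ library also had another gene table and software version. The median type 1 share of its highest bin was 266 CPM, against 1019 and 1015. These differences and the sort cannot be told apart.

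**Figure D3:**
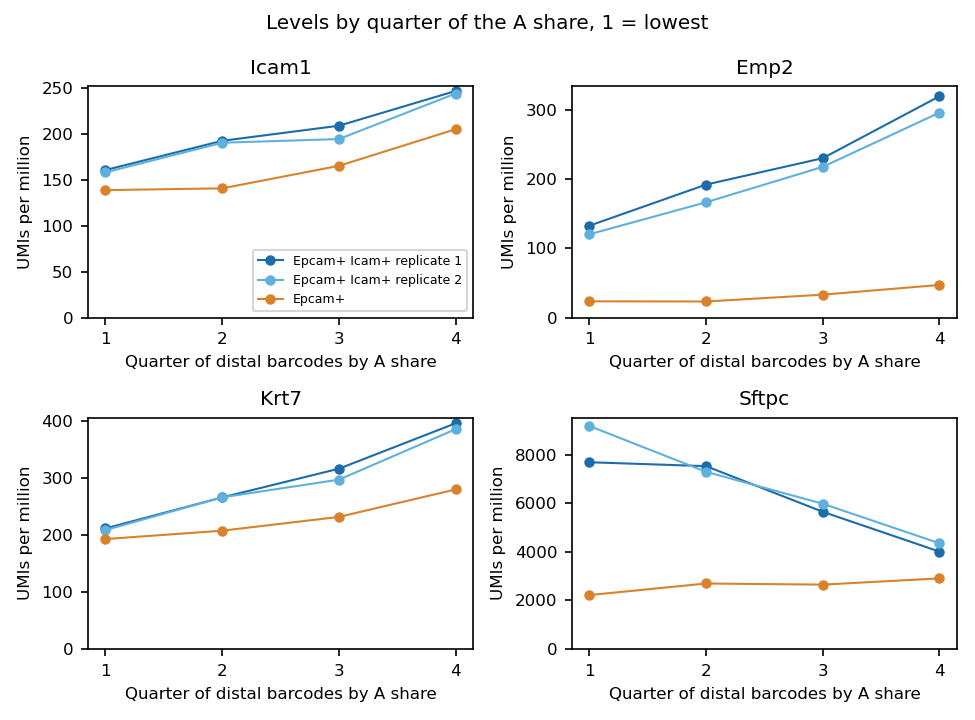
Levels of Icam1, Emp2, Krt7 and Sftpc in CPM over 4 equal bins of distal barcodes ordered by their type 1 share, with 1 line per library. Icam1, Emp2 and Krt7 end higher in bin 4 than in bin 1 in each library, and Sftpc ends lower only in the 2 Epcam+ Icam+ libraries.

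Among genes with a mean of at least 20 CPM, Cryab and Clic3 had the largest increases outside the selected genes. Cryab, the small heat shock protein alpha-B crystallin (chr9:50751325-50756636, plus strand, GRCm38), stood at 122, 109 and 26.5 CPM in type 1-like barcodes against 42.5, 39.8 and 9.10 in the others. Clic3, a chloride intracellular channel family member like Clic5 (chr2:25456838-25458776, plus strand), stood at 202, 169 and 22.3 CPM against 78.5, 69.1 and 8.15. Both genes were higher in every library, by a similar ratio in each. Their log2 fold changes were 1.5 ± 0.054 and 1.35 ± 0.0495 (SE, 3 libraries; edgeR's quasi-likelihood test, adjusted p = 4.3e-09 for both). Against barcodes high in neither share, Cryab was 1.26 and Clic3 1.10 higher on the log2 scale.

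The next largest increases with a mean of at least 20 CPM were Pdzk1ip1 at 1.15, Sema3a at 1.05, Galnt18 at 0.98, Pdlim2 at 0.88 and Igfbp7 at 0.86. Igfbp7, a secreted binding protein of insulin-like growth factors, stood at 138, 117 and 22.6 CPM against 68.8, 62.9 and 15.3. Emp2 followed at 0.83, with Mab21l4 and the calcium-activated chloride channel Ano1 also at 0.83. The last of the 12 were Gsn, which encodes the actin-severing protein gelsolin, and Sprr1a, a small proline-rich protein of squamous epithelium, both at 0.78. Sprr1a stood at 146, 169 and 9.83 CPM against 115, 93.9 and 1.96, and its ratio was larger in the Epcam+ library than in the others.

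Promoters of these 12 genes, of the 4 selecting genes and of Icam1 were searched for the AP-1 motif TGAGTCA and the TEAD core GGAATG on both strands, because genes of both pathways are among the lists below. RefSeq windows (GRCm38.p6, 250 bases before to 50 after a start site) were found for 14 of the 17 genes, 18 windows in all. AP-1 letters occurred in 2 of these windows and in 5.2% of 32851 RefSeq windows of the same length. TEAD letters occurred in 0 of these windows and in 14.7% of all. A match is a description of the letters and not a binding site. The upstream stretches with AP-1 matches, in capitals, belong to Sprr1a (chr3:92485966-92486052) and Mab21l4 (chr1:93161097-93161153), both on the minus strand and printed 5′ to 3′.
Sprr1a: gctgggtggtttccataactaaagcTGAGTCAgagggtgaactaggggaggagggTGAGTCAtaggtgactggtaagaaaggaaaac
Mab21l4: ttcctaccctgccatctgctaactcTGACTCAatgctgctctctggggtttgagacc
In Sprr1a the matches begin 146 and 116 bases before the start site, and in Mab21l4 the match begins 180 bases before it.

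Type 2 genes were lower in type 1-like barcodes, and much of this depended on the surfactant-high barcodes in the comparison. Of 24 type 2 genes tested 15 fell, 2 rose and 7 were not called, where 7.65% of all genes fell and 4.97% rose. Their median log2 fold change was -0.51. Against barcodes high in neither share, 3 of 21 fell (3.44% of all genes), 2 rose and the median was -0.10. The selection removed barcodes high in surfactant genes, so the second comparison is the one less shaped by it.

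Sftpc showed this most plainly. It stood at 3096, 3623 and 2772 CPM in type 1-like barcodes and at 7034, 7551 and 2590 in the others, a log2 fold change of -0.72 (edgeR's quasi-likelihood test, adjusted p = 0.0085). Over single type 1-like barcodes the median Sftpc level was 1024, 925 and 1771 CPM and 84.4%, 84.8% and 99.1% had a UMI. Macrophage barcodes, which should lack the transcript, had an Sftpc UMI in 51.1%, 49.9% and 94.4% of cases (399, 383 and 36 barcodes), so a UMI alone does not show expression. Sftpc was lower in both Epcam+ Icam+ libraries and slightly higher in the Epcam+ library. Against barcodes high in neither share Sftpc differed by -0.04 (adjusted p = 0.86). Napsa, the protease napsin A that processes surfactant proteins, was at 23.7, 21.0 and 1.91 CPM against 36.0, 38.7 and 5.42, a log2 fold change of -0.82, and of 0.06 (adjusted p = 0.91) against barcodes high in neither share. Lamp3, a membrane protein of lamellar bodies, was seen with 3, 1 and 20 UMIs in type 1-like barcodes, and its levels were 0.332, 0.119 and 1.52 CPM against 5.66, 5.69 and 4.88. Slc34a2, the phosphate transporter of type 2 cells, had 0, 0 and 1 UMI, where 3 UMIs would amount to 0.332, 0.358 and 0.229 CPM.

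Some genes also fell against barcodes high in neither share. Dlk1, a membrane protein with EGF repeats that is abundant in immature tissues, stood at 103, 111 and 412 CPM in type 1-like barcodes against 266, 320 and 856. Its log2 fold change was -1.30 (edgeR's quasi-likelihood test, adjusted p = 3.6e-08), and -0.33 against barcodes high in neither share (adjusted p = 0.023). Dram1, a lysosomal membrane protein, stood at 20.9, 25.9 and 15.6 CPM against 65.3, 65.5 and 35.1, with log2 fold changes of -1.39 and, against neither, -0.48 (adjusted p = 0.0033). Scgb3a2, a secretoglobin of airway secretory cells, stood at 6.53, 1.19 and 3.05 CPM against 79.6, 116 and 16.2, and its log2 fold change was -4.05, and -4.43 against neither. Mest at -1.12, Vcan at -0.88, Psrc1 at -0.87, Bex2 at -0.78 and Rgs10 at -0.76 were also lower in both comparisons, at -0.79, -0.62, -0.49, -0.37 and -0.33 against neither. Mical1 at -0.80 and Prxl2a at -0.74 were not called against neither (-0.32 and -0.25). Cd74, the invariant chain of antigen-presenting cells, was at -1.54 and -2.01, but at 0.70 without barcodes that held more than 5 UMIs of other cell types. The immune markers given below were lower in type 1-like barcodes, and their part in this value was not tested. Dlk1, Dram1 and Scgb3a2 were lower in every library.

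Genes of the distal tip did not move together. Of 22 tested 7 fell and 4 rose, with a median of -0.08, where 7.65% of all genes fell and 4.97% rose. Sox9, carried by tip progenitors, stood at 51.4, 47.0 and 59.5 CPM against 49.2, 54.5 and 75.3. Id2, Etv4, Etv5 and Bmp4, named next, were all lower over the 3 libraries, and the largest increase in the list was 0.53. Id2, an inhibitor of basic helix-loop-helix factors that marks tip progenitors, stood at 131, 131 and 430 CPM against 196, 196 and 586, a log2 fold change of -0.54 (adjusted p = 1.7e-06), and of -0.31 against neither (adjusted p = 9.6e-05). Etv4, an ETS factor that responds to FGF signalling, stood at 0.886, 0.716 and 5.26 CPM against 4.20, 4.87 and 20.5 and fell by 2.12. Its relative Etv5 fell by 0.59 but differed by only -0.13 against neither (adjusted p = 0.17). Bmp4, a growth factor made at the tip, differed by -0.55 over the 3 libraries, from 32.2, 28.6 and 47.1 CPM against 31.7, 34.0 and 102, so the change lay in the Epcam+ library. Among lung transcription factors 4 of 26 rose and 7 fell. Nkx2-1, the lung lineage factor, was at 225, 217 and 245 CPM against 203, 206 and 216. Its log2 fold change was 0.13 (edgeR's quasi-likelihood test, adjusted p = 0.04), so it was slightly higher in type 1-like barcodes and present in both.

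Genes of mitosis were lower in the type 1-like barcodes of the Epcam+ Icam+ libraries. Of 59 genes of the G2 and M phases 41 fell and 0 rose, with a median log2 fold change of -0.40 (18 were not called). DESeq2, which called 2.82% of all genes lower and 2.25% higher, called 19 of them lower and 0 higher. In Epcam+ Icam+ replicate 1 and replicate 2 none of the 59 was higher in type 1-like barcodes, and the medians were -0.53 and -0.74. In the Epcam+ library 26 of 59 were higher and the median was -0.04. Without that library 59 of 59 fell, where 11.6% of all genes did. The summed G2 and M level was 5176, 4701 and 7217 CPM in type 1-like barcodes against 7178, 7347 and 7432. The 3 libraries therefore split by sort, with both Epcam+ Icam+ libraries on one side.

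Cenpa, the centromeric histone, stood at 76.3, 66.6 and 132 CPM against 136, 141 and 169, a log2 fold change of -0.74 (edgeR's quasi-likelihood test, adjusted p = 0.00012). Psrc1, a spindle protein, stood at 9.74, 10.2 and 33.1 against 20.1, 23.2 and 50.3, and its log2 fold change was -0.87. Cenpe, a kinetochore motor, stood at 54.8, 47.6 and 66.5 against 87.4, 89.5 and 59.4, so it was higher in type 1-like barcodes of the Epcam+ library. A test of the difference between sorts called 1.56% of 14279 genes higher and 1.91% lower in the Epcam+ Icam+ contrast. Of the 59 mitotic genes 45 were among those called lower and 0 among those called higher, with Cenpe at -0.89 and Cenpa at -0.53 (adjusted p = 4.8e-11). The test had 1 residual degree of freedom. Its Epcam+ side was a single library, with another gene table and software version and a lower limit of the type 1 share.

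A low level of cell cycle genes was a summed share of the S phase and G2 and M lists up to the median of the library's distal barcodes. The filter thus used the tested genes and is no independent check. Among barcodes with such a level, 21 of the 59 mitotic genes fell and 0 rose, where 5.01% of genes fell and 3.11% rose. Against barcodes high in neither share 34 fell and 0 rose, where 3.44% of all genes fell and 2.81% rose. Of 44 S phase genes 3 fell and 1 rose over the 3 libraries, where 7.65% of all genes fell and 4.97% rose. The S phase median was -0.02, but the libraries differed. In type 1-like barcodes 9, 20 and 38 of the 44 were higher, with medians of -0.17, -0.02 and 0.08. Without the Epcam+ library 15 fell and 4 rose, where 11.6% of all genes fell and 10.5% rose, so the 4 are near that share. Among genes that halt the cycle, Cdkn2b, a cyclin-dependent kinase inhibitor, rose by 0.79 (16.8, 16.7 and 4.57 CPM against 9.50, 9.54 and 2.86), and Cdkn1a, which encodes p21, fell by 0.38. Of 21 genes of MYC and ribosome biogenesis 13 fell and 0 rose, with a median of -0.25, and 5 fell against neither (3.44% of all genes). Srm, spermidine synthase, fell by 0.57 from 37.4, 39.1 and 150 to 23.6, 25.7 and 108 CPM.

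**Figure D4:**
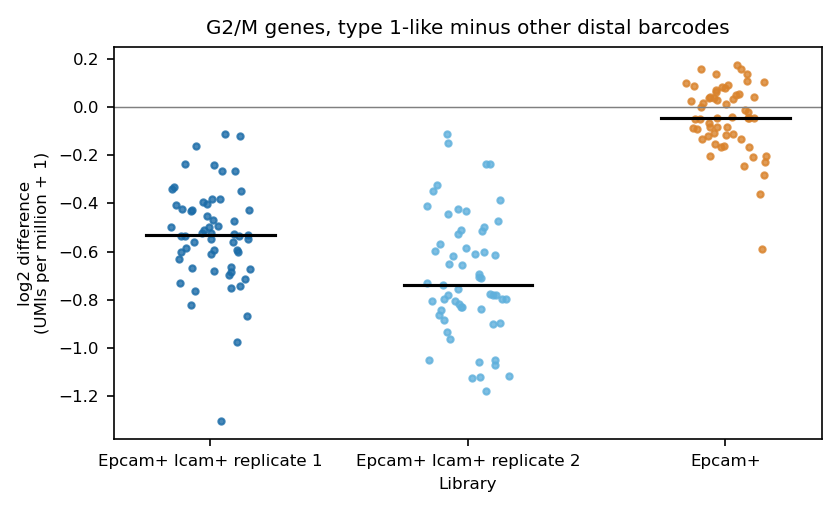
Differences of 59 G2 and M phase genes between type 1-like and other distal barcodes in each library, as log2 of CPM plus 1, with 1 point per gene and bars at the medians. All points of the 2 Epcam+ Icam+ libraries lie below 0, with medians of -0.53 and -0.74, and those of the Epcam+ library lie on both sides of it with a median of -0.04.

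Genes listed for a keratin-high transition state, a state described in the injured adult lung between type 2 and type 1 cells, were divided. Of 30 tested 17 rose and 7 fell, with a median of 0.27, where 4.97% of all genes rose and 7.65% fell. Against barcodes high in neither share 12 of 29 rose and 3 fell (2.81% and 3.44% of all genes). Among barcodes with low cell cycle genes 10 of 29 rose and 5 fell (3.11% and 5.01% of all genes), with a median of 0.07. Itgb6, the integrin subunit that releases active TGF-beta, stood at 68.3, 76.9 and 10.6 CPM against 53.4, 50.1 and 7 and rose by 0.51. Cldn4, a claudin of this state, stood at 153, 144 and 138 CPM against 120, 112 and 106 and rose by 0.35. Krt8, the keratin that gives the state its name, was named after its values were seen and differed by 0.19, from 684, 676 and 469 to 758, 729 and 586 CPM. Nupr1, a stress-induced nuclear protein, and Cdkn1a fell, as did Areg, an EGF receptor ligand, by 0.57. Areg did not differ from barcodes high in neither share beyond the spread (-0.11, adjusted p = 0.26).

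Of 24 basement membrane genes and receptors 11 rose and 3 fell, with a median of 0.20, where 4.97% of all genes rose and 7.65% fell. Col4a3 and Col4a4, collagen IV chains that assemble together, rose by 0.93 and 0.66, with Col4a3 at 20.1, 17.6 and 1.83 CPM against 10.2, 9.20 and 1.15. Of 7 caveolar genes 4 rose and 0 fell, led by Ehd2 at 0.75 and Cavin1 at 0.71. Cavin1, a caveolar coat protein, stood at 52.9, 51.7 and 7.01 CPM against 33.8, 30.0 and 4.45. In the Epcam+ library 3 of the 7 were higher, with a median of -0.03, against 6 of 7 in each Epcam+ Icam+ library. Of 22 junction genes 8 rose and 0 fell. Of 18 annexin and S100 genes 10 rose and 1 fell, and of 26 actin and focal contact genes 5 rose and 2 fell.

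Fluid transport genes divided, with 7 of 15 higher and 2 lower, where 4.97% of all genes were higher and 7.65% lower. Ano1, at 101, 97.4 and 25.8 CPM against 61.1, 52.0 and 14, and the sodium channel subunits Scnn1b and Scnn1g rose by 0.83, 0.75 and 0.73. In the list of retinoid and insulin-like growth factor genes 8 of 17 rose and 1 fell. Igfbp6 rose by 1.02 and Crabp2, a carrier of retinoic acid, by 0.54, and Igfbp4 fell by 0.80.

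Signalling lists showed ligands, receptors and targets moving in different ways. Over all genes tested 4.97% rose and 7.65% fell. In the YAP and TEAD list 10 of 22 rose and 1 fell, with a median of 0.17. Tead1, a DNA-binding partner of YAP, stood at 106, 96.0 and 25.4 CPM against 79.5, 74.2 and 19.9 and rose by 0.38. The targets F3 and Ankrd1 rose by 0.43 and 0.39, and Crim1 fell by 1.41. In the TGF-beta list 3 of 21 rose and 4 fell. Its ligand Tgfb2 stood at 294, 285 and 211 CPM against 195, 188 and 145, a log2 fold change of 0.57 (adjusted p = 1.5e-06) and of 0.49 against neither. The target Tgfbi fell by 0.94. Tgfb1, at about 2 CPM, fell by 0.89, but it was at 0.08 (adjusted p = 0.89) without barcodes of more than 5 UMIs of other cell types. In the EGF list the receptors Egfr and Erbb2 rose by 0.59 and 0.41, and the ligands Areg and Ereg fell. Of 13 Wnt targets 4 fell and 0 rose, of 12 BMP targets 5 fell and 0 rose, and of 12 Notch genes 1 was called, Lfng at 0.58. With barcodes high in neither share as the comparison, 0 of 12 Wnt targets were called by edgeR's quasi-likelihood test (2 were lower at an unadjusted p under 0.05), with a median of -0.08 against -0.30 above. In that comparison 1 of 12 BMP targets fell, where 3.44% of all genes did.

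Over all genes tested 4.97% rose and 7.65% fell, so a single rising gene in a list of this size is near that share. Of 15 FGF and ERK feedback genes 2 rose and 2 fell, and of 18 p53 targets 1 rose and 3 fell. Among 17 NF-kB and TNF response genes 3 rose and 3 fell. Without barcodes of more than 5 UMIs of other cell types, described below with the immune markers, 3 of 16 NF-kB and TNF genes rose and 0 fell. Their median went from -0.18 to 0.19, and of all genes 5.24% rose and 7.59% fell. Of 23 glycolysis and hypoxia genes 1 rose and 3 fell, and of 18 cell cycle exit genes 3 rose and 1 fell. Of 17 antigen presentation and interferon genes 1 rose and 4 fell, and without the same barcodes 2 of 14 rose and 1 fell. Of 18 cholesterol synthesis genes 0 were called by edgeR's quasi-likelihood test or by DESeq2, and 5 were lower at an unadjusted p under 0.05 in edgeR. Among genes induced by tissue dissociation 8 of 22 rose and 2 fell, with Hspb1, a small heat shock protein, at 0.77 and Egr1 at 0.45. Of 13 mitochondrially encoded genes 1 rose, by 0.09.

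**Figure D5:**
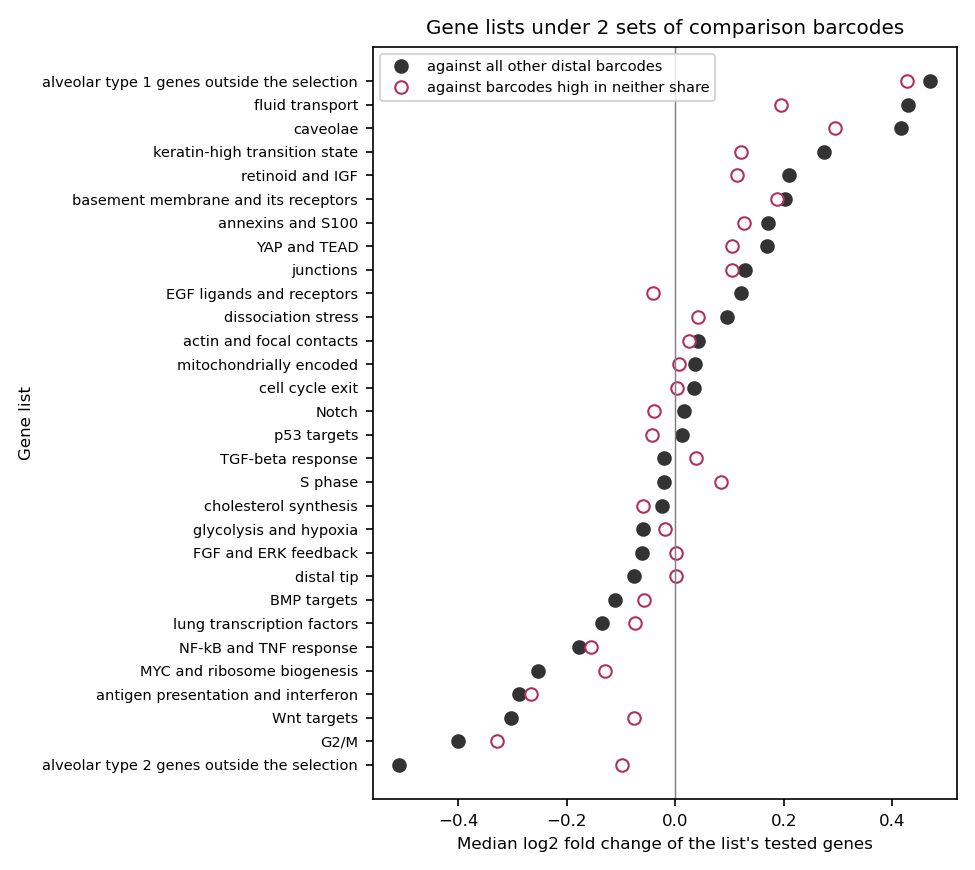
Median log2 fold change of the tested genes of 30 lists, against all other distal barcodes (filled) and against barcodes high in neither share (open). The type 1 list stays near the right end at 0.47 and 0.43, the type 2 list moves from -0.51 to -0.10, and the G2/M list from -0.40 to -0.33.

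Markers of other cell types moved with the comparison in places. Summed over 10 immune markers the level was 10.2, 9.91 and 30.6 CPM in type 1-like barcodes against 88.0, 71.3 and 55.2 in the others, with 1, 1 and 0 of the 10 at 0. Summed over 9 erythroid genes it was 13.3, 7.40 and 46.4 CPM against 9.20, 114 and 797, and over 7 mast cell and basophil genes 1.44, 2.51 and 16 against 11.3, 28.6 and 83.6. Of those tested, 5 of 10 immune, 4 of 4 erythroid and 3 of 5 mast cell genes fell. UMIs of other cell types were summed over the immune, mast cell and basophil, erythroid, mesenchymal and endothelial lists. Barcodes with more than 5 of them made up 35.1%, 29.5% and 40.4% of type 1-like barcodes and 29.6%, 27.6% and 42.6% of the others. Without these barcodes 0 genes of the immune, erythroid and mast cell lists were called by edgeR's quasi-likelihood test, 0 also at an unadjusted p under 0.05. The filter counted these 3 lists, so the loss of their calls does not test them. Cd74 reversed from -1.54 to 0.70, and the decreases of Tgfb1 (to 0.08) and S100a4 (to -0.05) were gone. Of the type 1 list 26 of 35 still rose and 1 fell, where 5.24% of genes rose, and of the G2 and M list 49 of 59 fell, where 7.59% fell.

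Airway markers summed to 158, 149 and 347 CPM against 237, 271 and 335, and of 8 tested 1 rose and 2 fell. Their part in the decrease of Scgb3a2 was not tested. The selection asked for no Sox2 UMI in type 1-like and other distal barcodes alike, so it cannot serve as a test. The summed ciliated level was 27.7, 25.6 and 36.1 CPM against 20.4, 18.3 and 20.1. Of 4 ciliated genes Tppp3 rose by 0.70, and of 2 mesothelial genes Msln rose by 0.95. The summed level of 12 mesenchymal markers was also higher in type 1-like barcodes of each library, at 316, 239 and 100.3 CPM against 195, 164 and 87.5, with 5, 3 and 3 of the 12 at 0. Of 6 tested 1 rose, Tagln at 0.57, and 2 fell. The filter on UMIs of other cell types also counted mesenchymal and endothelial UMIs, and the separate part of mesenchymal transcripts was not tested. Ciliated transcripts were outside that filter, and their part in the other results was not tested. Of 4 endothelial genes 2 fell. Over all genes tested 4.97% rose and 7.65% fell. Of 4 neuroendocrine genes and 1 basal gene 0 were called by edgeR's quasi-likelihood test or by DESeq2. At an unadjusted p under 0.05 in edgeR, 1 neuroendocrine gene was higher and 1 lower.

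Besides the mitotic genes, the contrast of type 1-like and other distal barcodes was larger in the Epcam+ Icam+ libraries for type 1 and caveolar genes. The median interaction was 0.16 for 35 type 1 genes and 0.65 for 7 caveolar genes, against 0.03 for all genes. The single Epcam+ library also had another gene table and software version. Its barcodes were chosen at a lower limit, 201 CPM against 782 and 744, mostly on Ager. These differences and the sort cannot be told apart. Pdpn had an interaction of 0.66 (edgeR's quasi-likelihood test, adjusted p = 6.1e-05) and Cav1 of 1.07 (adjusted p = 0.01). Cav1 stood at 16.1, 18.9 and 2.52 CPM against 9.91, 9.20 and 2.80. For Emp2, Cryab and Clic3 the interaction was 0.01, 0.01 and -0.06 (adjusted p at least 0.9 for each). For 24 type 2 genes the median interaction was -0.16, with Sftpc at -1.16.

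Against the barcodes high only in the surfactant share, type 1-like barcodes differed as follows. Of 12509 genes tested 10.2% were higher and 12.4% lower. Among genes with a mean of at least 20 CPM the largest increases were Cryab at 2.32, Clic3 at 2.13, Sema3a at 1.97, Sprr1a at 1.84, Adamtsl1 at 1.82 and the matricellular protein Smoc2 at 1.81. By the same limit the largest decreases were Cthrc1 at -3.07, Scgb3a2 at -2.84, Dram1 at -2.29, Dlk1 at -2.23, Napsa at -1.68 and Mest at -1.61. Of 34 type 1 genes 27 rose and 2 fell, with a median of 0.73, and Icam1 rose by 0.66 (edgeR's quasi-likelihood test, adjusted p = 0.00018). Of 59 mitotic genes 38 fell and 0 rose.

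The 178 barcodes high in both shares met the same limit of the type 1 share as the type 1-like barcodes. Of 11418 genes 1.33% were higher in the type 1-like barcodes and 1.2% lower. Of 33 type 1 genes 5 rose and 1 fell, of 18 type 2 genes 0 rose and 10 fell, and of 59 mitotic genes 0 rose and 2 fell. Among genes with a mean of at least 20 CPM the largest increases were Sprr1a at 1.59, Smoc2 at 1.15, Mmp23 and Egr1 at 1.05, Tgfb3 at 1.02 and Kcnk2 at 1.00. By the same limit the largest decreases were Dram1 at -1.54, Dlk1 at -1.33, Nrp1 at -1.22, Napsa at -1.17, Sftpc at -1.16 and Egfl6 at -1.10. Icam1 was 0.29 higher in the type 1-like barcodes (edgeR's quasi-likelihood test, adjusted p = 0.01). These sums held 68, 40 and 70 barcodes, against 441, 407 and 468 in the surfactant-high class, so the numbers of calls cannot be compared.

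Between sorts the type 1-like barcodes differed in most genes: 35.5% of 12332 were higher in the Epcam+ Icam+ libraries and 35.4% lower. The sort, the gene table and the software version changed together, so they cannot be told apart here. Of 34 type 1 genes 27 were higher and 3 lower in the Epcam+ Icam+ libraries, with a median of 1.90 against 0.02 for all genes. By the rule for named genes the largest differences were those of Fdx2, Atp6v0c, Rnasek, Mrpl53, Neat1 and Lars2, higher in the Epcam+ Icam+ libraries, and of Ptp4a1, Usp50, Chtf8, Coro1b, Wdr89 and Taf6l, lower there. Of these 12, 8 share exons with another gene on the same strand, so their values are uncertain.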

How the data were processed

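Counts are UMIs per gene and barcode as deposited by the authors, from libraries labelled as Chromium 3′ v3. The file headers name Cell Ranger 5.0.1 for both Epcam+ Icam+ libraries and 3.0.2 for the Epcam+ library, and the submitters' processing notes name Cell Ranger 2.1.1 and mm10. The gene tables held 32285, 32285 and 31053 genes, of which 30406 were joined by Ensembl identifier. Totals per library were 74170599, 67843828 and 84460347 UMIs. Counting intervals (exact binomial for shares of barcodes, approximate Poisson for levels of the selecting genes, 95%) cover counting error only.

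Barcodes were chosen by the shares given at the start, and their counts were summed per library and class. The sums were tested with edgeR 4.0.16 in R 4.3.3 (TMM scaling, filterByExpr, quasi-likelihood F test, Benjamini-Hochberg, threshold 0.05), with the library as a block where both classes come from each library. The block is the pairing: both sums of a pair hold barcodes of 1 library. The Epcam+ Icam+ replicates could not be paired with the single Epcam+ library. The genes that chose the barcodes got no test. Each SE is the absolute log2 fold change divided by the square root of the test's F statistic. The SE thus carries dispersion shared across genes and is not the spread over the 3 libraries alone. On simulated counts with 200 genes changed by a fold of 2, 100% were recovered for type 1-like against other distal barcodes and 95.5% for the difference between sorts (1.5: 99% and 70%). Unchanged genes called were 5 and 10 (1.5: 13 and 6). Each simulated gene had a single mean shared by all libraries. The spread was set below the fitted biological coefficient of variation of the main comparison, 4.75%, so recovery on the real counts can be lower. DESeq2 1.42.0 was an alternative. Scrublet in scanpy 1.11.5 called 0, 1 and 0 doublets by its automatic threshold, which has not worked at this size, so the highest scores were left out at 0.8% per 1000 barcodes as an alternative (92, 80 and 72 barcodes).

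Genes were named by a rule: the 12 largest log2 fold changes in each direction in the main comparison and 6 in each other, among called genes whose mean reached 20 CPM and whose direction was the same in each library. Predicted gene models and genes of ribosomal proteins, globins and mitochondria were left out. Icam1, Nkx2-1, up to 4 called genes per list and the first listed markers of each cell type were named too. Genes outside the rule (Krt7, Krt8) were named after their values were seen. The members and the 40 gene lists were chosen with earlier results of these data known. The alternative without barcodes of more than 5 UMIs of other cell types was chosen after seeing the data.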

Additional observations from a re-analysis of the deposited data

Results flagged for a closer look

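The signed log2 difference, type 1-like minus other distal barcodes, was tested between sorts (edgeR's quasi-likelihood test, 14279 genes, adjusted p under 0.05). It was higher in the Epcam+ Icam+ libraries for 223 genes and lower for 273. A higher signed difference can be a larger increase or a smaller decrease, and a lower one the reverse. DESeq2 called 7 and 39. The test set 2 libraries against 1 and had 1 residual degree of freedom, so it holds for these libraries.

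Among named genes the signed difference was higher in the Epcam+ Icam+ libraries for Bmp4 by 1.07 on the log2 scale, for Lgals3 by 1.00, for Rapgef2 by 0.98, for Ccn2 by 0.84, for Rgcc by 0.82, for Tmod3 by 0.71, for Igfbp7 by 0.44 and for Prxl2a by 0.30. For Bmp4 this was a decrease that lay in the Epcam+ library, as given above. Lgals3, which encodes galectin-3, stood at 63.3, 62.0 and 5.26 CPM in type 1-like barcodes against 51.1, 41.5 and 7.49 in the others. Ccn2, a target of YAP and TEAD, stood at 111, 98.3 and 5.79 against 87.9, 85.4 and 8.26. Both were higher in the Epcam+ Icam+ libraries and lower in the Epcam+ library.

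The signed difference was lower in the Epcam+ Icam+ libraries for 6 other named genes and for Ifitm1. The interaction was -0.89 for Cenpe, -1.07 for Fxyd6, -1.16 for Sftpc, -1.67 for Sprr1a, -2.14 for Scgb3a2 and -0.33 for Dlk1. Cenpe and Sftpc fell in the Epcam+ Icam+ libraries and not in the Epcam+ library, and Sprr1a rose by a smaller ratio there than in the Epcam+ library. For Ifitm1, an interferon-induced membrane protein, the interaction was -6.03, from 0.553, 0.597 and 29.6 CPM against 46.0, 34.5 and 30.4. The Ifitm1 values in the type 1-like barcodes of the Epcam+ Icam+ libraries rest on 5 UMIs each. Immune and mast cell markers were also lower in type 1-like barcodes, as given above, and their part in the Ifitm1 value was not tested.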

How the results depend on the processing

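Counts of calls moved with the settings. For type 1-like against other distal barcodes (679 higher, 1044 lower) they were 307 and 385 with DESeq2, 371 and 455 against barcodes high in neither share, 383 and 616 among barcodes with low cell cycle genes, 377 and 467 with barcodes thinned to 5000 UMIs before summing, and 154 and 124 with thinning before selection. Leaving out 1 library gave 175 to 1385 higher and 151 to 1533 lower, the upper ends without the Epcam+ library. Without the replicate block, that is without pairing sums by library, 0 genes were called higher or lower in this comparison, against surfactant-high barcodes and against barcodes high in both.

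Against surfactant-high barcodes (1273 and 1553) the counts were 593 and 867 with DESeq2, 672 and 820 with low cycle genes, 633 and 699 with thinned sums, and 446 and 464 with thinning before selection, and 375 to 2256 and 290 to 2448 leaving out 1 library. Against barcodes high in both (152 and 137) they were 44 and 49 with DESeq2, 32 and 37 with low cycle genes, 66 and 41 with thinned sums, 35 and 16 with thinning before selection, 77 and 51 with selection and levels from separate UMIs, and 19 and 12 with the 90th percentile. With at most 5 UMIs of other cell types 89 were higher, with no filter 245 were higher, and with RLE scaling 221 were lower. Leaving out 1 library gave 126 to 163 and 116 to 156. For the difference between sorts (223 and 273) the counts were 7 and 39 with DESeq2, 79 and 124 with low cycle genes, 16 and 63 with thinned sums, 27 and 28 with thinning before selection, 72 and 141 with separate UMIs and 53 and 69 with at most 5 UMIs of other cell types. With RLE scaling 131 were higher, against neither 136 were higher, and with the 90th percentile 178 were lower. Between sorts (4384 and 4363) they were 2611 and 2625 with DESeq2, 2714 and 2686 with thinned sums and 2193 and 2142 with thinning before selection. Leaving out a library of these last 2 comparisons leaves no residual degrees of freedom.

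The number of type 1-like barcodes was 185, 173 and 201 with the 90th percentile, 290, 270 and 236 with low cycle genes, 286 in Epcam+ Icam+ replicate 1 and 279 in the Epcam+ library with at most 5 UMIs of other cell types, 224 in replicate 2 and 309 in the Epcam+ library with thinning before selection, and 2 in the Epcam+ library with a common limit. Measured on separate UMIs the selecting genes stood at 305, 307 and 10.9 CPM for Hopx, 59.0 and 54.5 for Clic5 in the Epcam+ Icam+ libraries, 416, 434 and 182 for Ager and 193, 200 and 40.1 for Akap5. Each level differs from the reported one by more than the Poisson counting limits of its UMIs (normal approximation), and each number of barcodes by more than 1.5 times. With thinning before selection 17 of 32 type 1 genes rose and 17 of 59 mitotic genes fell, where 154 and 124 of 11195 genes did.

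Named genes reversed as follows, and the cause was not tested. With at most 5 UMIs of other cell types Cd74 was 0.70, Lyz2 0.14, Laptm5 0.23, Cpa3 0.39, Hbb-bt 0.06, Hba-a1 0.07, Hba-a2 0.15, Tgfb1 0.08 and Psmb8 0.00. That filter itself counted the immune, mast cell and erythroid lists. With thinning before selection Napsa was 0.05, Hba-a1 and Hba-a2 0.96, Hbb-bs 0.28, Aen 0.19 and Cxcl10 -0.04, Scgb3a2 was 1.02 against surfactant-high barcodes, and the difference of Sprr1a between sorts was 1.23. Against neither, Napsa was 0.06, Ccnd2 -0.04 and the difference of Dlk1 between sorts 0.59. With low cycle genes S100a6 was -0.03 and the difference of Dlk1 was 0.10. In the main comparison 143 named genes under all alternatives gave 2492 values, of which 1925 kept direction and side of the threshold, 541 kept direction only, 8 gained a call and 18 reversed.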
